A study of Mus musculus with 18 samples.

Results

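Macrophages in a mammary tumor are read in bulk RNA through the genes they express, and 10 such genes were followed here: the identity markers Adgre1, Csf1r and Cd68, the growth factor Csf1, and the state genes Mrc1, Cd163, C1qa, Trem2, Spp1 and Arg1. They were chosen by name, not by their values, and are 10 of the 57126 genes in the count table. All 10 passed the filter on low counts in every comparison. The lowest raw count of any of them in any tumor was 160, for Arg1.

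The study sequenced RNA from 18 mammary tumors of female F1 mice (BALB/c crossed to C57BL6/J). Trp53 was altered by Cre recombinase, delivered into the mammary ducts in an adenovirus, so the recombined alleles are those of infected duct cells and not of the macrophages. The 7 MaP R172H/- tumors express the Trp53 R172H mutant over a deleted allele, the 5 MaP R245W/- tumors express Trp53 R245W over a deleted allele, and the 6 MaP -/- tumors lost both alleles. A Rosa26LSL-TdTomato/+ reporter is labelled in 3 MaP R172H/- mice (YZ2, YZ6 and YZ10), in 3 MaP R245W/- mice (JM1233, JM1564 and RM0014) and in no MaP -/- mouse. Each mutant tumor came from a mouse of its own. The MaP -/- tumors came from 4 mice, with JM663 and JM833 giving a pair of tumors each. Total counts per tumor were between 23113578 and 37365062. The MaP R172H/- libraries were read on an Illumina HiSeq and all others on a NovaSeq, so instrument and genotype cannot be told apart in any comparison with MaP R172H/- tumors. In the study's pathology, all MaP R172H/- tumors were adenocarcinomas without metaplasia, while most of the others were metaplastic, so tumor type also goes with genotype. Epithelial marker genes were detected in every tumor, with a summed level between 150 CPM in JM779-T1 and 7764 CPM in YZ11. The next lowest sums were in YZ7 (351.6 CPM) and JM1233 (465.6 CPM), and every other tumor had at least 968.2 CPM. YZ7 was thus low although it is among the MaP R172H/- tumors classed as adenocarcinomas. The part of this low epithelial signal in the levels of the 10 genes was not tested. Adipocyte genes summed highest in JM833-T1 (3104 CPM), JM833-T2 (319 CPM) and YZ4 (236 CPM), skeletal muscle genes in JM1233 (781 CPM) and JM1133 (143 CPM), and fibroblast genes in JM1126 (29510 CPM) and JM1233 (13637 CPM).

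Tissue macrophages derive from embryonic precursors or from blood monocytes, and depend on signaling by the receptor CSF1R, whose ligands are CSF1 and IL34. The transcription factor PU.1, encoded by Spi1, directs much of their gene expression. In mammary tumors they can take several states, among them a resident-like state with the mannose receptor MRC1 and the haemoglobin scavenger receptor CD163, a lipid-handling state with the receptor TREM2, and states that express osteopontin (Spp1) or arginase (Arg1). Neither Spp1 nor Arg1 is restricted to macrophages, since epithelial and other stromal cells can express them. In bulk tissue, fewer macrophages and less RNA per macrophage cannot be told apart, and the macrophages of these tumors carry wild-type Trp53 in every group.

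Levels are given as CPM, counts relative to library size, with edgeR's TMM library sizes. Differences are log2 fold changes from edgeR's quasi-likelihood test, with their standard error (SE) and a false discovery rate (FDR, Benjamini-Hochberg) taken over all genes tested, and a gene was called at an FDR below 0.05. A separate fit served each mutant against MaP -/-, and 1 fit of all 18 tumors served the mutants against each other. In MaP R172H/- against MaP -/- tumors, 2 of the 10 genes were lower, Adgre1 and Mrc1, and none was higher. Over all genes tested in that comparison, 3.67% were higher and 4.73% lower, together 8.40%. In MaP R245W/- against MaP -/- tumors, none of the 10 genes and none of 21452 genes tested (0%) was called by edgeR. At an unadjusted p below 0.05 there were 2527 genes, none of them among the 10, and a DESeq2 Wald test called 424 genes (1.71%), also none of the 10. Only Adgre1 was called among the 10 in MaP R172H/- against MaP R245W/- tumors, and it was lower, against 6.49% of all genes lower and 2.91% higher, together 9.40%. None of the 10 genes had CPM values that did not overlap between groups, in any comparison. Over all genes tested, the groups did not overlap for 4.62%, 1.33% and 5.68% of genes in these 3 comparisons.

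**Figure D1:**
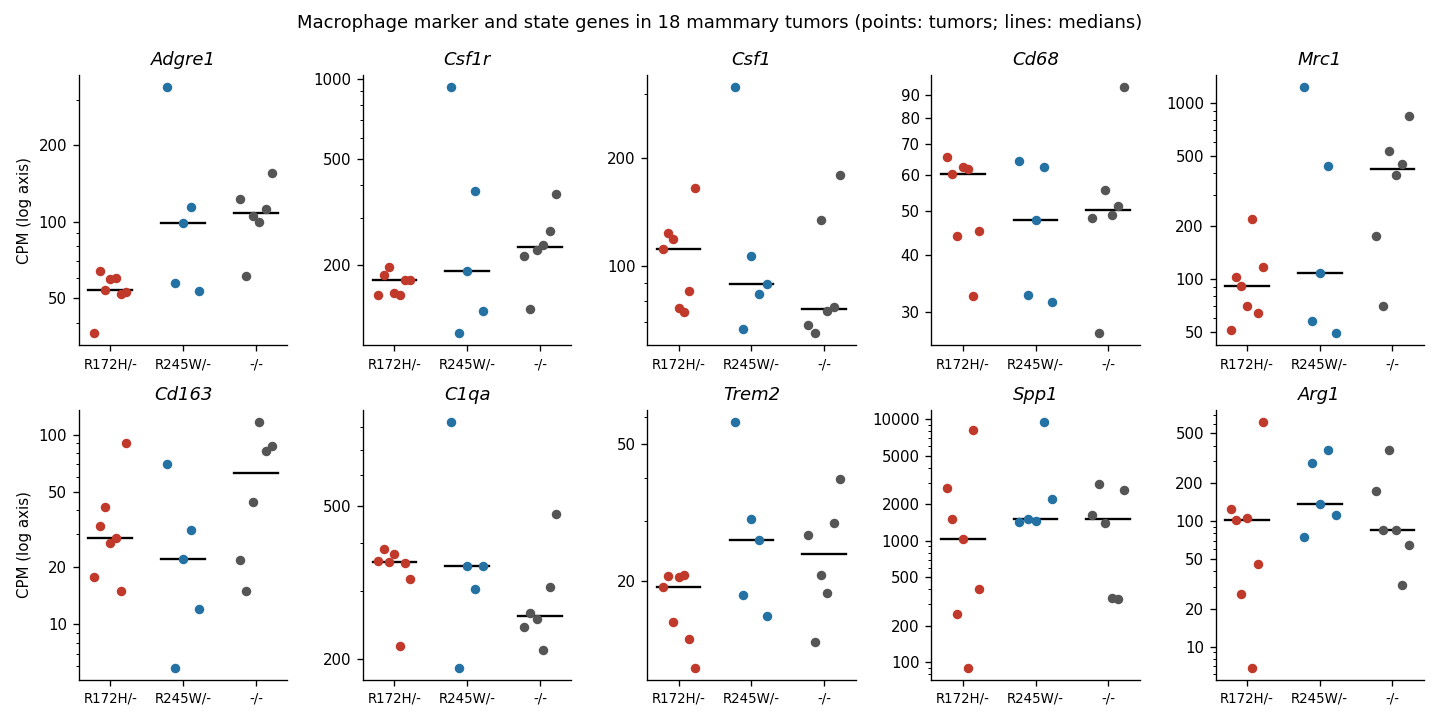
Level of each of the 10 genes in CPM (log axis) in every tumor, by genotype. Points are tumors and lines are group medians. Adgre1 and Mrc1 sit low in the 7 MaP R172H/- tumors, Spp1 and Arg1 spread widely within each group, and the MaP R245W/- tumor JM1233 is the highest point for Adgre1, Csf1r, Csf1, Mrc1, C1qa and Trem2.

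Adgre1 (ENSMUSG00000004730.16; chromosome 17 of GRCm39, 57665573 to 57790527) encodes F4/80, the surface protein most used to mark mouse macrophages. Its lowest, median and highest levels in MaP R172H/- tumors were 36.5, 53.7 and 64.1 CPM. In MaP -/- tumors they were 61.3, 108 and 156 CPM. All MaP R172H/- tumors except YZ3 lay below the lowest MaP -/- tumor, JM663-T1. The mean was 54.1 ± 8.93 CPM (SD, n = 7) against 109 ± 30.8 CPM (SD, n = 6), and Adgre1 was 2.05-fold lower in MaP R172H/- tumors (log2 fold change -1.04, SE 0.20, FDR = 0.00688 from edgeR). The call held when any 1 tumor was left out, with an FDR between 0.00209 and 0.0183. It was lost when all 18 tumors were fitted together (log2 fold change -1.05, FDR = 0.0734 from edgeR). It was also lost when the mean level of 14 other macrophage genes was added to the fit (log2 fold change -0.83, FDR = 0.139 from edgeR).

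Among MaP R245W/- tumors, Adgre1 was at 338 CPM in JM1233, 57.6 in JM1564, 98.6 in RM0014, 114 in JM1126 and 53.5 in JM1133. JM1233 stood above every other tumor of the series, while JM1564 and JM1133 lay within the MaP R172H/- range. MaP R172H/- tumors had less Adgre1 than MaP R245W/- tumors (log2 fold change -1.31, SE 0.36, FDR = 0.0302 from edgeR). That call depended on JM1233, without which the log2 fold change was -0.60 and the FDR 0.138 (edgeR). It was also lost without YZ2, YZ4 or YZ10 (FDR 0.0598, 0.0513 and 0.0537 from edgeR), with a fit of the 12 tumors alone (FDR = 0.0663) and without the filter on low counts (FDR = 0.0515).

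Csf1r (ENSMUSG00000024621.17; chromosome 18, 61229714 to 61266535) encodes the receptor on which most macrophages depend for survival. It varied least among MaP R172H/- tumors, where its lowest, median and highest levels were 154, 175 and 198 CPM, a coefficient of variation of 9.65%. In MaP -/- tumors these levels were 138, 234 and 369.7 CPM. JM663-T1 was the lowest MaP -/- tumor and lay below every MaP R172H/- tumor, and the other 5 lay above all of them. The log2 fold change of MaP R172H/- against MaP -/- tumors was -0.53 (SE 0.19, FDR = 0.103 from edgeR), which did not pass the threshold. Without JM663-T1 it was -0.65 with an FDR of 0.0263 (edgeR). Csf1r in MaP R245W/- tumors was at 929.6 CPM in JM1233, 111 in JM1564, 190.2 in RM0014, 380.4 in JM1126 and 135 in JM1133. This group held both the highest and the lowest Csf1r level of the series. Its log2 fold change against MaP -/- tumors was 0.51 (SE 0.51, FDR = 0.713 from edgeR), and -0.28 without JM1233. Set against Csf1r in the same tumor, the log2 ratio of Adgre1 was between -2.08 and -1.36 in MaP R172H/- tumors and between -1.27 and -0.81 in MaP -/- tumors, without overlap. Of all genes tested, 0.616% were lower in this ratio without overlap. This ratio was chosen after the values were seen.

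Csf1 (ENSMUSG00000014599.11; chromosome 3, 107648364 to 107667806) encodes the main ligand of this receptor, which stromal and tumor cells make as well as macrophages. Across tumors, the lowest, median and highest levels were 74.4, 112 and 165 CPM in MaP R172H/- tumors and 65.2, 76.1 and 179 CPM in MaP -/- tumors. The groups overlapped over almost their whole range, and the log2 fold change was 0.08 (SE 0.27, FDR = 0.881 from edgeR). The MaP R245W/- levels were 314 CPM in JM1233 and between 67.0 and 106 CPM in the other 4. The difference of this group from MaP -/- tumors was 0.39 on the log2 scale (SE 0.43, FDR = 0.736 from edgeR), and -0.23 without JM1233.

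The other genes of the colony-stimulating factor family were read from a list of 9 ligands and receptors that includes Csf1 and Csf1r. Of the 8 tested in MaP R172H/- against MaP -/- tumors, 1 was higher and 1 lower, with a median log2 fold change of -0.74 against 0.00 over all genes. Csf2ra, the binding chain of the GM-CSF receptor, was higher (log2 fold change 1.20, SE 0.29, FDR = 0.0235 from edgeR). Csf2rb, its signaling chain, was lower (log2 fold change -0.93, SE 0.26, FDR = 0.0397 from edgeR). The second CSF1R ligand, Il34, stood at -0.54 on the log2 scale (FDR = 0.412 from edgeR). The GM-CSF gene Csf2 was too low to be tested there.

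Cd68 (ENSMUSG00000018774.14; chromosome 11, 69555037 to 69557067) encodes a lysosomal glycoprotein of macrophages, which other phagocytes and some tumor cells also express. Its level varied least of the 10 genes, 3.47-fold between the lowest and the highest of the 18 tumors. From lowest through median to highest, the levels were 32.5, 60.05 and 65.6 CPM in MaP R172H/- tumors and 26.9, 50.1 and 93.5 CPM in MaP -/- tumors. Levels in MaP R245W/- tumors were 64.4 CPM in JM1233, 32.7 in JM1564, 47.6 in RM0014, 62.2 in JM1126 and 31.6 in JM1133. All 3 groups covered much the same range. The log2 fold changes against MaP -/- tumors were -0.05 (SE 0.25) for MaP R172H/- and -0.20 (SE 0.30) for MaP R245W/- tumors, with FDRs of 0.924 and 0.814 from edgeR. Adgre1 and Cd68, both markers of macrophages as a class, thus did not give the same difference in MaP R172H/- tumors, and a test between them was not run.

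Mrc1 (ENSMUSG00000026712.4; chromosome 2, 14234151 to 14336926) encodes the mannose receptor CD206, which takes up glycoproteins and marks resident-like and alternatively activated macrophages. The lowest, median and highest levels were 51.5, 91.1 and 221 CPM in MaP R172H/- tumors and 69.8, 421 and 850.0 CPM in MaP -/- tumors. The group medians lay far apart, but the MaP -/- tumors JM663-T1 and JM836-T1 (176 CPM) lay within the MaP R172H/- range. YZ7 was the highest MaP R172H/- tumor. Mrc1 was 4.08-fold lower in MaP R172H/- tumors (log2 fold change -2.03, SE 0.50, FDR = 0.0236 from edgeR). Without JM663-T2 the FDR was 0.0526 (log2 fold change -1.94, edgeR). The call was also lost in the fit of all 18 tumors (FDR = 0.0815) and with the 14 macrophage genes in the fit (log2 fold change -2.23, FDR = 0.160 from edgeR).

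Mrc1 in MaP R245W/- tumors was at 1235 CPM in JM1233, 57.7 in JM1564, 108 in RM0014, 441 in JM1126 and 49.2 in JM1133. JM1233 and JM1126 lay among or above the high MaP -/- tumors, JM1564 and RM0014 lay among the MaP R172H/- tumors, and JM1133 was the lowest of all 18 tumors. The log2 fold change against MaP -/- tumors was -0.13 (SE 0.85, FDR = 0.963 from edgeR), and -1.35 without JM1233. Against MaP R245W/- tumors, Mrc1 in MaP R172H/- tumors had a log2 fold change of -1.90 (SE 0.71, FDR = 0.101 from edgeR), and -0.69 without JM1233. Tumors of 1 mouse could differ as much as the groups did. JM663-T1 was at 69.8 CPM and JM663-T2 at 535 CPM, a ratio of 7.67, while JM833-T1 and JM833-T2 were at 391 and 452 CPM.

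Cd163 (ENSMUSG00000008845.10; chromosome 6, 124281606 to 124307560), the haemoglobin scavenger receptor, did not pass the test in any comparison. Across tumors, the lowest, median and highest levels were 15.0, 28.5 and 90.3 CPM in MaP R172H/- tumors and 14.9, 63.0 and 117 CPM in MaP -/- tumors. The high tumors were JM833-T1, YZ11, JM779-T1 and JM833-T2, all above 80 CPM, so that high levels were found in both groups. Among MaP R245W/- tumors it was at 69.5 CPM in JM1233, 5.88 in JM1564, 21.97 in RM0014, 31.5 in JM1126 and 11.97 in JM1133. The log2 fold changes against MaP -/- tumors were -0.79 (SE 0.50, FDR = 0.349) for MaP R172H/- and -1.14 (SE 0.67, FDR = 0.518) for MaP R245W/- tumors, both from edgeR.

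Promoter sequences are shown for Mrc1, which was called, and for the markers Cd68 and Trem2. They are the 250 bases before the transcription start in RefSeq (build GRCm38.p6), written 5′ to 3′ on the gene's strand. Capitals mark GAGGAA, the core of many PU.1 sites, or its reverse complement TTCCTC. Mrc1 is chr2:14229164-14229413 on the plus strand, Cd68 is chr11:69666171-69666420 on the minus strand, and Trem2 is chr17:48346151-48346400 on the plus strand.
Mrc1: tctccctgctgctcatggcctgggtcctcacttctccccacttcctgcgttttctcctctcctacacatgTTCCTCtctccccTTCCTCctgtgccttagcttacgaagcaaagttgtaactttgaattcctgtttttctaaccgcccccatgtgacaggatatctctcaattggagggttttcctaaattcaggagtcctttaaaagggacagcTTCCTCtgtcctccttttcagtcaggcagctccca
Cd68: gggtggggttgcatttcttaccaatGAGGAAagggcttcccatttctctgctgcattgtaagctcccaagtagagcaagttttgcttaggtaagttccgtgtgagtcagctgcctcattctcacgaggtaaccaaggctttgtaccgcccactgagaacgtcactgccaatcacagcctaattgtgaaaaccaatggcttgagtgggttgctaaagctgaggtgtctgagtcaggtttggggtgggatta
Trem2: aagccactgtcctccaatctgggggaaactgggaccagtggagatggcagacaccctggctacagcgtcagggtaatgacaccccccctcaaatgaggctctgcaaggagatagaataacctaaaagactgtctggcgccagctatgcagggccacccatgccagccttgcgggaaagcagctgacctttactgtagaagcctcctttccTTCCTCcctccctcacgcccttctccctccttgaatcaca
The Mrc1 window holds 3 matches, all on the opposite strand, the Cd68 window holds 1 on the gene's strand and the Trem2 window holds 1 on the opposite strand. The RefSeq table had promoters for 6 of the 10 genes. Of the others with an entry, 1 of the 2 Spp1 starts held a match, and Csf1 and Cd163 held none. Over all 32851 promoters, 23.3% held at least 1 match in this window and 0.429% held 3 or more. A match describes the letters only. Spi1 itself stood at -0.24 on the log2 scale (FDR = 0.516 from edgeR) in MaP R172H/- against MaP -/- tumors.

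The wider resident-type list held 13 genes, Mrc1 and Cd163 among them, of which 12 were tested and Marco was too low. Of the 12, 6 were lower and none was higher in MaP R172H/- against MaP -/- tumors. All 12 log2 fold changes lay below 0, with a median of -1.64 against 0.00 over all genes. The 6 genes were Mrc1, Vsig4, Pf4, Lyve1, Msr1 and F13a1, and the other 6, Cd163 among them, did not pass the test. Vsig4, a complement receptor of resident macrophages, had a log2 fold change of -2.60 (SE 0.64, FDR = 0.0237 from edgeR). Its levels were low, at 0.083 to 1.23 CPM in MaP R172H/- and 0.29 to 7.43 CPM in MaP -/- tumors. Pf4, the chemokine platelet factor 4, had one of -2.54 (SE 0.68, FDR = 0.0361 from edgeR). Lyve1, a hyaluronan receptor that lymphatic endothelium also expresses, had one of -2.19 (SE 0.62, FDR = 0.0445 from edgeR). The lymphatic genes Prox1 and Flt4 were at -0.24 and 0.17 (FDR 0.880 and 0.683 from edgeR). Prox1 was low in every tumor, and highest in JM1233 (7.75 CPM), JM833-T2 (5.07), YZ10 (4.79) and JM833-T1 (3.01). Lyve1 was highest in JM833-T2 (51.6 CPM), JM833-T1 (38.6) and JM1233 (34.8), but not high in YZ10. Flt4 in the JM833 tumors lay within the range of the other tumors. The part of lymphatic endothelium in the Lyve1 difference was not tested. None of the 12 was called in MaP R245W/- against MaP -/- tumors, where 0% of all genes tested were called. Their median there was -0.60. Between the mutants, the scavenger receptor gene Msr1 was the 1 gene of the list called, lower in MaP R172H/- tumors (log2 fold change -1.83, SE 0.50, FDR = 0.0267 from edgeR).

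C1qa (ENSMUSG00000036887.6; chromosome 4, 136623223 to 136626161) encodes a chain of C1q, the first component of the classical complement pathway, which in tissue is made largely by macrophages. From lowest through median to highest, the levels were 216, 356 and 386 CPM in MaP R172H/- tumors and 211, 258 and 475 CPM in MaP -/- tumors. The MaP R172H/- tumors were close to each other except YZ7, and the MaP -/- tumors were lower except JM779-T1. The log2 fold change was 0.19 (SE 0.20, FDR = 0.607 from edgeR). C1qa in MaP R245W/- tumors was at 826 CPM in JM1233, 189 in JM1564, 348 in RM0014, 304 in JM1126 and 349 in JM1133. Its log2 fold change against MaP -/- tumors was 0.45 (SE 0.35, FDR = 0.624 from edgeR).

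C1qa was also read relative to other macrophage genes. Set against the mean log2 level of the 14 core macrophage genes in the same tumor, its log2 ratio was between 2.47 and 2.78 in MaP R172H/- tumors and between 1.48 and 2.19 in MaP -/- tumors. These groups did not overlap. Of all genes tested, 7.11% were higher in this ratio without overlap, so the pattern was not rare among genes. C1qb gave 1.77 to 2.30 against 0.73 to 1.39, again without overlap. C1qc gave 1.28 to 2.02 against 0.43 to 1.34, with overlap at JM779-T1. MaP R245W/- tumors ranged from 1.46 in JM1126 to 2.65 in JM1233 for C1qa, across both other groups. Relative to Csf1r alone, C1qa overlapped between the groups, with a log2 ratio of 0.48 to 1.25 in MaP R172H/- and -0.18 to 0.93 in MaP -/- tumors. With the 14 genes in the fit, the log2 fold change of C1qa was 0.67 (SE 0.20), which did not pass the threshold (FDR = 0.111 from edgeR). The ratios were chosen after the values were seen. Several of the 14 genes are also expressed by neutrophils and monocytes.

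**Figure D2:**
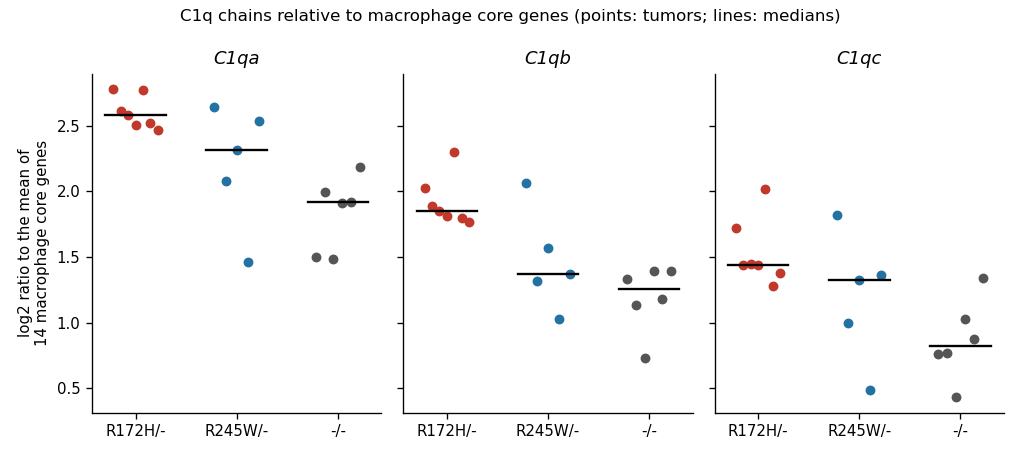
Log2 ratio of the 3 C1q chain genes to the mean log2 CPM of 14 macrophage core genes in the same tumor, by genotype. Points are tumors and lines are group medians. For C1qa the MaP R172H/- tumors lie between 2.47 and 2.78 and the MaP -/- tumors between 1.48 and 2.19, with MaP R245W/- tumors across both.

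Of 10 complement genes tested in the list of C1 and C3 components and receptors, 1 was lower in MaP R172H/- against MaP -/- tumors and none higher, with a median log2 fold change of -0.18. It was Itgam (log2 fold change -1.48, SE 0.31, FDR = 0.0110 from edgeR), a chain of complement receptor 3 that neutrophils also carry.

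Trem2 (ENSMUSG00000023992.15; chromosome 17, 48653429 to 48661175) encodes a lipid-sensing receptor of macrophages. The lowest, median and highest levels were 11.2, 19.3 and 20.8 CPM in MaP R172H/- tumors and 13.3, 24.01 and 39.7 CPM in MaP -/- tumors. The groups overlapped, although YZ11 alone lay below all MaP -/- tumors and none of the 7 exceeded 20.8 CPM. The MaP R245W/- levels were 58.2 CPM in JM1233, 18.2 in JM1564, 30.4 in RM0014, 26.3 in JM1126 and 15.8 in JM1133. The log2 fold change of MaP R172H/- tumors was -0.54 (SE 0.25, FDR = 0.203) against MaP -/- and -0.80 (SE 0.31, FDR = 0.116) against MaP R245W/- tumors, both from edgeR.

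TREM2 signals through the adaptor TYROBP and the kinase SYK. Of 7 genes of this pathway and of the CD47 and SIRPA don't-eat-me signal, 4 were lower in MaP R172H/- against MaP -/- tumors (median log2 fold change -1.04). Cd47, which most cell types express, had a log2 fold change of -1.27 (SE 0.21, FDR = 0.00245 from edgeR). Tyrobp had one of -0.97 (SE 0.22, FDR = 0.0154 from edgeR) and Syk one of -1.04 (SE 0.22, FDR = 0.0128 from edgeR). The remaining gene was the adaptor gene Hcst, at -1.71 (FDR = 0.0121 from edgeR). None of the 7 was called in MaP R245W/- against MaP -/- tumors, where 0% of all genes tested were called. Of the 18 genes of the lipid-associated program, which holds Trem2 and Spp1, 2 were lower in MaP R172H/- against MaP -/- tumors (median log2 fold change -0.44). They were the lipid droplet gene Plin2 (log2 fold change -1.40, SE 0.33, FDR = 0.0208 from edgeR) and the cholesterol exporter gene Abca1 (-0.80, SE 0.22, FDR = 0.0373 from edgeR).

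Spp1 (ENSMUSG00000029304.15; chromosome 5, 104582165 to 104589235), the osteopontin gene, had the widest range of the 10 genes, 106-fold over the 18 tumors. Across tumors, the lowest, median and highest levels were 89.9, 1031 and 8153 CPM in MaP R172H/- tumors and 331, 1518 and 2926 CPM in MaP -/- tumors. YZ10 held the highest and YZ7 the lowest level of the first group, and both JM833 tumors were low in the second. Levels in MaP R245W/- tumors were 1425 CPM in JM1233, 1501 in JM1564, 1456 in RM0014, 9518 in JM1126 and 2223 in JM1133. Apart from JM1126 this group was tight. The log2 fold changes against MaP -/- tumors were 0.37 (SE 0.88, FDR = 0.832) for MaP R172H/- and 1.06 (SE 0.70, FDR = 0.559) for MaP R245W/- tumors, both from edgeR. Without JM1126 the latter was 0.07.

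Markers of osteoclasts, the bone-resorbing cells, and of fibroblasts were highest in JM1126. The summed level of 5 osteoclast genes was 514 CPM there, of which Ctsk gave 373 CPM. In the other 17 tumors the sum was between 31.9 and 129 CPM. Acp5 (114 CPM), Ocstamp (14.7) and Dcstamp (12.5) were also highest in JM1126, against at most 63.7, 6.96 and 1.97 CPM in the other tumors. The osteoclast gene Calcr was at 0.096 CPM in JM1126, but it was at most 1.1 CPM in any tumor. The summed level of 7 fibroblast genes was 29510 CPM in JM1126 and 13637 CPM in JM1233, which had the lowest Spp1 level of its group, and between 2499 and 7323 CPM in the others. YZ10, the other tumor with high Spp1, had sums of 74.4 CPM for osteoclast and 4727 CPM for fibroblast genes, within the range of the other tumors. The part of these cells in the Spp1 levels was not tested.

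Arg1 (ENSMUSG00000019987.10; chromosome 10, 24791118 to 24803817) encodes the arginine-degrading enzyme arginase 1, a gene of alternative activation. It ranged 91.4-fold over the 18 tumors. From lowest through median to highest, the levels were 6.76, 102 and 618 CPM in MaP R172H/- tumors and 31.2, 84.8 and 369.9 CPM in MaP -/- tumors. Both extremes of the series, YZ7 and YZ11, were MaP R172H/- tumors. Among MaP R245W/- tumors it was at 75.2 CPM in JM1233, 293 in JM1564, 138 in RM0014, 369 in JM1126 and 111 in JM1133. JM1233, highest for 6 of the 10 genes, was thus the lowest of its group for both Spp1 and Arg1. The log2 fold changes against MaP -/- tumors were 0.08 (SE 0.82, FDR = 0.964) for MaP R172H/- and 0.52 (SE 0.60, FDR = 0.751) for MaP R245W/- tumors, both from edgeR.

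Of 13 alternative activation genes tested in MaP R172H/- against MaP -/- tumors, 3 were lower and none higher, with a median log2 fold change of -0.98. They were Mrc1, the chitinase-like gene Chil3 (-3.31, SE 0.88, FDR = 0.0341 from edgeR), which neutrophils also express, and Il10 (-1.65, SE 0.46, FDR = 0.0417 from edgeR). Of 13 classical activation genes tested, 3 were also lower and none higher, with a median of -0.60. They were Il6 (log2 fold change -3.21, SE 0.63, FDR = 0.00807 from edgeR), the costimulatory gene Cd86 (-1.08, SE 0.24, FDR = 0.0153 from edgeR) and Il1b (-1.91, SE 0.53, FDR = 0.0410 from edgeR). Levels of Il10 and Il6 were low. Il10 was at 0.13 to 0.84 CPM in MaP R172H/- and 0.68 to 3.15 CPM in MaP -/- tumors, and Il6 at 0.10 to 0.71 against 0.75 to 8.80 CPM. Genes of both programs were therefore among those that fell.

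Recruitment was read from another list. Of 11 genes of monocytes and their attractants, 5 were lower in MaP R172H/- against MaP -/- tumors and none higher, with a median log2 fold change of -1.01. Ccr2, the receptor through which monocytes leave the bone marrow, had a log2 fold change of -1.45 (SE 0.30, FDR = 0.0101 from edgeR). The chemokine genes Ccl2 (-2.43, SE 0.68, FDR = 0.0434), Ccl7 (-2.21, SE 0.47, FDR = 0.0111) and Ccl8 (-2.29, SE 0.53, FDR = 0.0174, all from edgeR) were lower too. Of the 14 core macrophage genes, 4 were lower and none higher (Itgam, Tyrobp, Aif1 and Lyz2), with a median of -0.44. Other core genes did not pass the test, such as Fcgr1 at -0.50 (FDR = 0.181) and Mertk at -0.22 (FDR = 0.574, both from edgeR). Over the 9 macrophage lists together, 26 of 102 genes tested (25.5%) were lower and 1 was higher, against 4.73% and 3.67% of all genes. The lists share genes with each other, and their members are not independent.

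**Figure D3:**
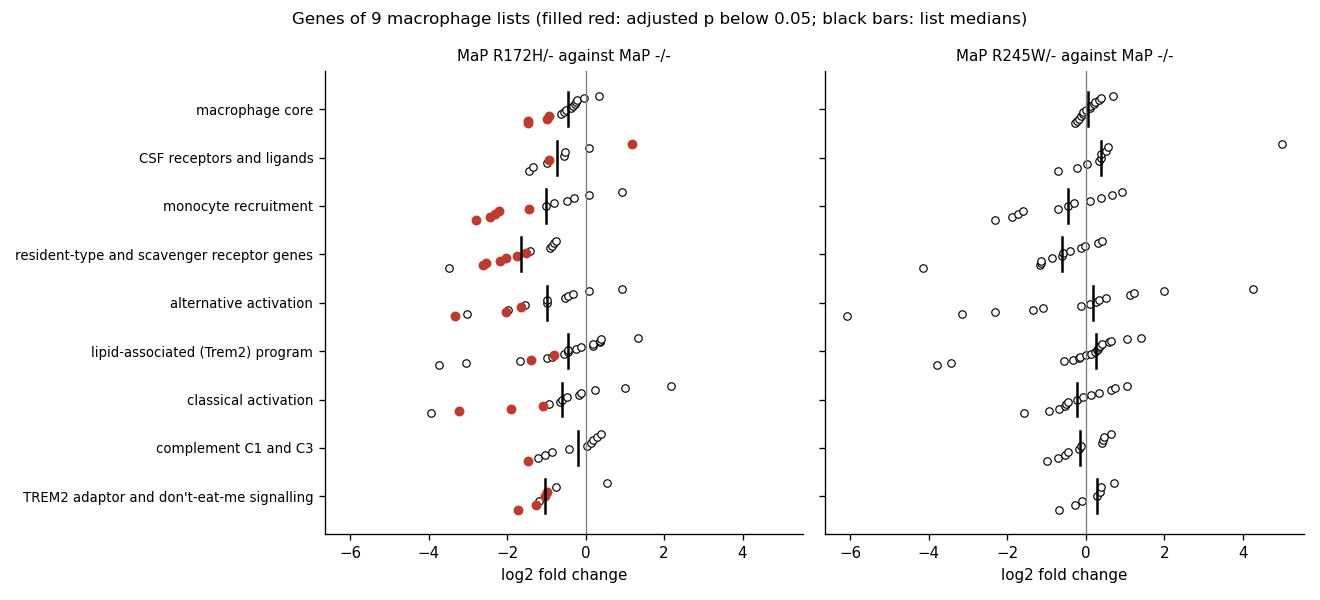
Log2 fold changes of the tested genes of 9 macrophage lists in MaP R172H/- against MaP -/- tumors (left) and in MaP R245W/- against MaP -/- tumors (right). Points are genes, filled where the adjusted p is below 0.05, and black bars are list medians. On the left the medians lie between -1.64 and -0.18 with filled points mostly below 0. On the right no point is filled, in a comparison where 0% of all genes tested were called.

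Some markers of other cells were called in the same comparison, and others were not. Of 5 neutrophil genes tested in MaP R172H/- against MaP -/- tumors, 3 were lower (Retnlg, S100a9 and S100a8), and their list had a summed level of 7.14 to 85.8 CPM against 45.1 to 721 CPM, with Ly6g too low to be tested. Of 4 general leukocyte genes, Cd53 and Ptprc were lower, and their list summed to 125 to 257 CPM against 296 to 892 CPM, without overlap. Of 7 fibroblast genes, Lum and Pdgfra were lower, but the sums of the list overlapped, at 2499 to 7323 CPM against 3654 to 6644 CPM. The endothelial gene Pecam1 was the 1 gene lower of 4 tested (log2 fold change -0.77, SE 0.17, FDR = 0.0135 from edgeR), and the osteoclast gene Ctsk, which fibroblasts also express, the 1 of 4 (-1.38, SE 0.21, FDR = 0.00187 from edgeR). None of the T cell, dendritic cell, adipocyte, skeletal muscle or osteoblast genes tested was called. The 4 B cell genes summed to at most 11.5 CPM in MaP R172H/- tumors and to 247 CPM in JM833-T2, and none was called. None of the 6 epithelial genes was called, and all had log2 fold changes above 0, with a median of 1.24. The part of these cell types in the differences of Adgre1, Mrc1 and the lists was not tested.

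Over the 9 macrophage lists, 13 of 104 genes tested (12.5%) were lower in MaP R172H/- against MaP R245W/- tumors and 0 were higher, against 6.49% and 2.91% of all genes. The 4 core genes Tyrobp, Lyz2, Itgam and Aif1 were lower again, with Tyrobp at -1.37 (SE 0.32, FDR = 0.0111 from edgeR) and Lyz2, the lysozyme gene, at -2.17 (SE 0.52, FDR = 0.0144 from edgeR). Fabp5, a fatty acid carrier, was lower at -1.68 (SE 0.39, FDR = 0.0108 from edgeR), as was the cathepsin gene Ctsl at -2.09 (SE 0.59, FDR = 0.0340 from edgeR). Over the 10 genes the median log2 fold change was -0.58, and 8 of 10 lay below 0. The T helper attractant gene Ccl17 was lower at -3.93 (SE 1.08, FDR = 0.0291 from edgeR) and the CD47 receptor gene Sirpa at -1.03 (SE 0.30, FDR = 0.0356 from edgeR). Ccl17 was at 32.5 CPM in JM1126 but only at 0.17 to 3.36 CPM in the other MaP R245W/- tumors. In MaP R172H/- tumors it was at 0.04 to 1.67 CPM. Il6, Il1b, Cd86, Ccr2 and Msr1 were called as well, all lower, and no gene of the CSF list was called. Several called genes were uneven among MaP R245W/- tumors. Lyz2 was at 3782 CPM in JM1233 and 1734 in JM1126, against 300 to 691 in the others, and Ccr2 at 328 and 166 against 16.4 to 46.6. JM1126 was far highest for Il1b (345 CPM against 14.1 to 52.9) and Ctsl (4038 against 518 to 697). Fabp5 was instead lowest in JM1233 and JM1126. Whether these calls hold without either tumor was not tested. Markers of other cells that were lower here were the leukocyte gene Cd53 (-2.17, FDR = 0.00178 from edgeR), Lum (-2.60, FDR = 0.0344), Ctsk (-2.27, FDR = 0.0194) and the skeletal muscle genes Acta1, Myh4 and Tnnt3, which were high in JM1233 and JM1133. Their part in the differences was not tested. This comparison shares the MaP R172H/- tumors with the one above.

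**Figure D4:**
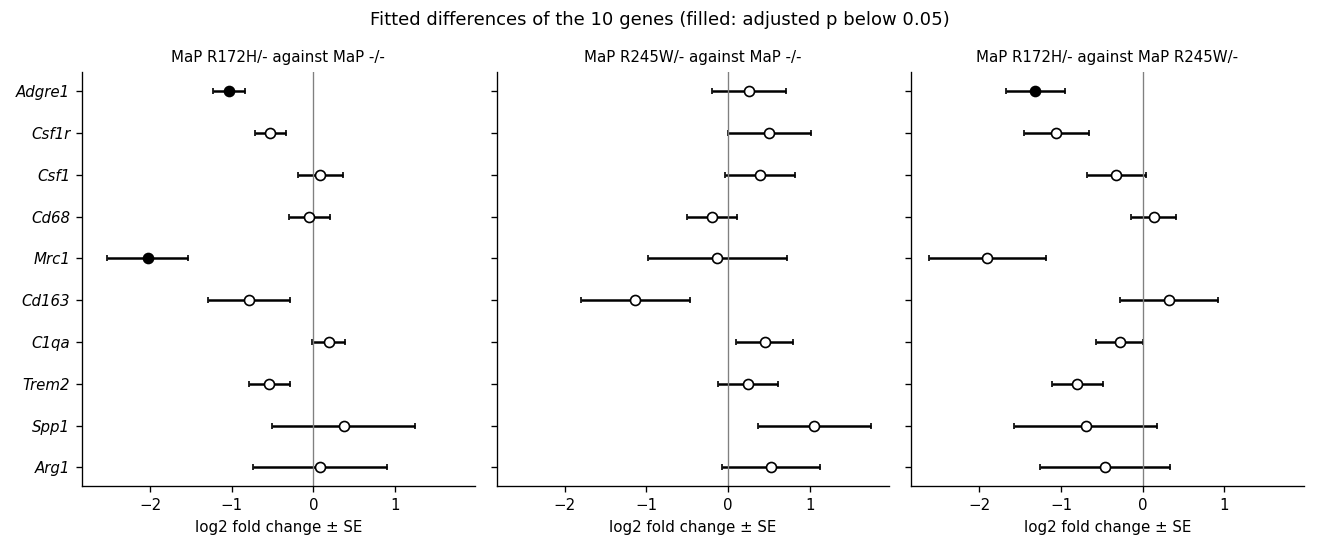
Log2 fold changes with their standard errors for the 10 genes in the 3 comparisons, with filled points at an adjusted p below 0.05. Adgre1 (-1.04) and Mrc1 (-2.03) are filled in MaP R172H/- against MaP -/- tumors, no gene in MaP R245W/- against MaP -/- tumors, and Adgre1 (-1.31) in MaP R172H/- against MaP R245W/- tumors.

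Levels were compared between genes per kb of exon, from the length of the canonical transcript of each gene. In MaP -/- tumors the mean level was highest for Spp1, at 691 ± 492 CPM per kb (SD, n = 6), and next for C1qa, at 269 ± 87.5. Arg1 (83.8 ± 77.3) and Mrc1 (75.2 ± 50.4) followed and did not differ beyond their spread. Cd68 (45.1 ± 18.1), Csf1r (40.2 ± 12.5), Adgre1 (32.6 ± 9.19), Csf1 (23.8 ± 11.04) and Trem2 (22.8 ± 8.62) formed a range in which each gene lay within the SD of its neighbour. Cd163 was lowest, at 13.8 ± 9.15 CPM per kb, below Trem2 by more than the SD of Trem2 but by less than its own. Mrc1 in MaP R172H/- tumors was at 18.6 ± 10.4 CPM per kb (SD, n = 7) and lay below Cd68 (44.3 ± 10.4) by more than the SD of either. It lay below Csf1r (28.3 ± 2.73) by more than the SD of Csf1r but by less than its own. The libraries were stranded, but the strand setting of the counting was not given in the sources used here. Exons of Csf1r overlap those of Hmgxb3 on the opposite strand, and exons of Arg1, Csf1 and Trem2 overlap non-coding genes on the opposite strand.

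How the other 9 genes varied with Csf1r was measured over the 16 mice, with tumors of 1 mouse averaged, on log2 CPM. Permutation tests (two-sided, 100000 permutations) were adjusted over the 9 relations. Mrc1 and Adgre1 followed Csf1r most closely. Mrc1 had r = 0.88 (permutation p = 1e-05, the smallest possible, adjusted 9e-05) and rho = 0.80 (p = 0.00046, adjusted 0.00207). Adgre1 had r = 0.89 (permutation p = 2e-05, adjusted 9e-05) and rho = 0.80 (p = 0.00036, adjusted 0.00207). Without JM1233 and JM1126, the 2 mice farthest from the median Csf1r level, r was 0.84 for Mrc1 and 0.77 for Adgre1.

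Trem2 (r = 0.79, permutation p = 0.0005, adjusted 0.0015) and Cd163 (r = 0.62, p = 0.00977, adjusted 0.0147) also rose with Csf1r. Their rho was 0.64 for both (permutation p = 0.0093 for Trem2 and 0.00918 for Cd163, adjusted 0.0209 for both), and r without the 2 mice was 0.60 and 0.77. For Csf1 (r = 0.69, permutation p = 0.00797, adjusted 0.0143) and C1qa (r = 0.71, p = 0.00596, adjusted 0.0134) the relation rested on those mice. Their rho was 0.34 and 0.28 (permutation p = 0.193 and 0.294, adjusted 0.2895 and 0.378), and r without the 2 mice was 0.49 and 0.45. Cd68 had r = 0.54 (permutation p = 0.0299, adjusted 0.0384) and rho = 0.41 (p = 0.111, adjusted 0.200), with r = 0.59 without the 2 mice. Spp1 (r = 0.18, permutation p = 0.492, adjusted 0.5535; rho = 0.04, p = 0.882) and Arg1 (r = -0.03, permutation p = 0.907; rho = -0.14, p = 0.609, adjusted 0.685) showed no relation that passed the test.

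Within instruments the picture divided. Over the 9 mice read on the NovaSeq, r with Csf1r was 0.96 for Adgre1, 0.92 for Mrc1, 0.88 for Trem2, 0.82 for C1qa, 0.81 for Csf1, 0.79 for Cd68 and 0.76 for Cd163 (exact permutation p between 0.000105 and 0.0171, adjusted 0.000942 to 0.0220). Without JM1233 and JM1564, r was 0.27 for C1qa and 0.35 for Csf1, and between 0.71 and 0.92 for the other 5. Over the 7 MaP R172H/- tumors, where Csf1r hardly varied, none of the 9 relations passed the test. There r was 0.29 for Adgre1 (exact permutation p = 0.594), -0.01 for Mrc1 (p = 0.982) and -0.48 for Trem2 (p = 0.284). The relations over all mice were thus not found again within the MaP R172H/- group.

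**Figure D5:**
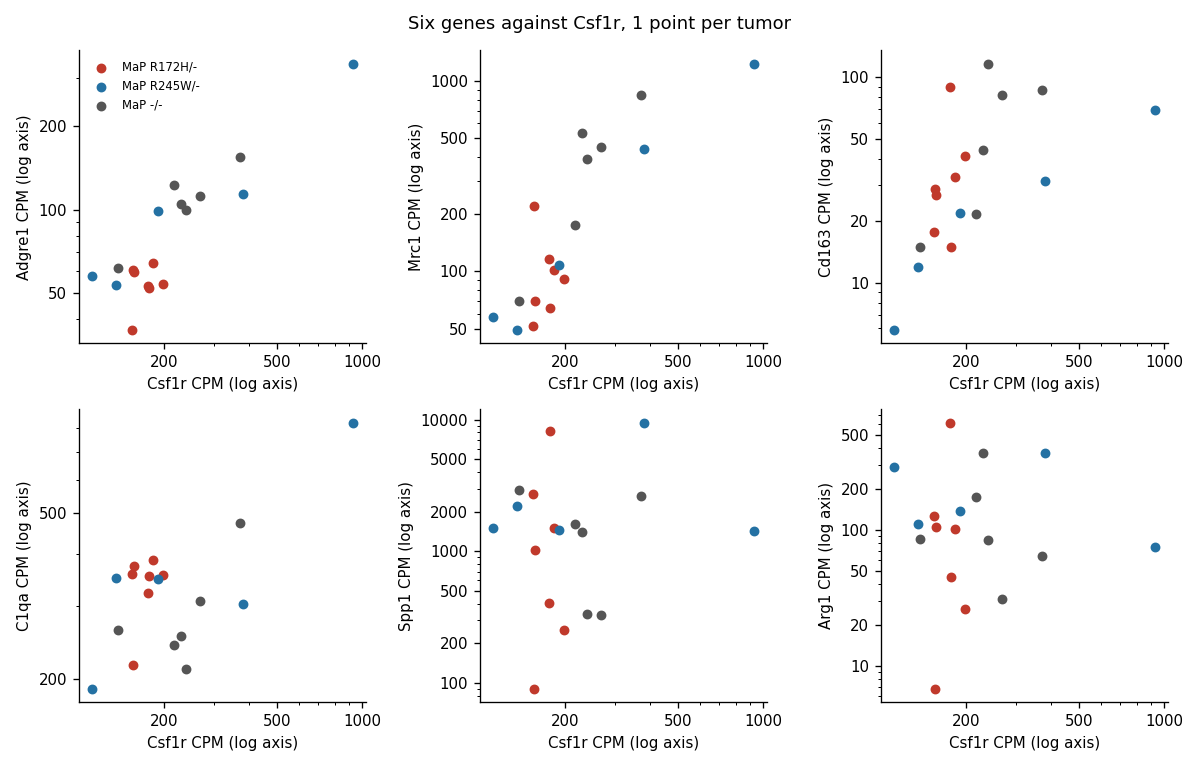
Levels of 6 genes against Csf1r (CPM, both axes log), 1 point per tumor, colored by genotype. Adgre1 and Mrc1 rise with Csf1r across the MaP R245W/- and MaP -/- tumors, while the 7 MaP R172H/- tumors lie in a narrow Csf1r range of 154 to 198 CPM. Spp1 and Arg1 show no such slope.

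Among 15197 protein-coding genes kept by the filter, the genes most like each of the 10 over the 18 tumors are given as a description, by Pearson's r of log2 CPM. For Csf1r they were Rab3il1 (r = 0.956), the scavenger receptor gene Stab1 (0.931) and Hfe (0.929). For Adgre1 they were Lyz2 (0.933), Rab3il1 (0.931) and Gpr34 (0.914). For Mrc1 they were the Fc receptor gene Fcgrt (0.946), Nxpe5 (0.945) and the coagulation factor gene F13a1 (0.937). For Cd163 they were Cbr2 (0.891), Gpr146 (0.873) and Galnt15 (0.872). The nearest gene to Trem2 was Adgre1 (0.863), followed by Raet1d (0.861) and Hexa (0.852). C1qa was nearest to the other C1q chains, C1qc (0.953) and C1qb (0.912), and then to Nfkb2 (0.805). Csf1 was nearest to Ccdc93 (0.869), Gpc1 (0.848) and Vmn1r43 (0.827), and Cd68 to Glis1 (0.823), Npl (0.792) and Prrx2 (0.788). Spp1 was nearest to Slc35e1 (0.890), Pla2g7 (0.856) and Usp47 (0.850), and Arg1 to Slk (0.881), Exoc1 (0.876) and Anxa1 (0.876). Between themselves, Spp1 and Arg1 had r = 0.474, and neither reached 0.3 with Adgre1, Csf1r, Mrc1 or Trem2. All points share 3 groups and 2 instruments, and JM1233 weighs on several of these values. Without JM1233, r with Csf1r was 0.937 for Rab3il1, and r with C1qa was 0.908 for C1qc and 0.820 for C1qb. There r with Trem2 was 0.771 for Adgre1 and 0.768 for Hexa, and r with Csf1 was 0.791 for Ccdc93. The values given for Spp1 and Arg1 hardly changed.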

How the data were processed

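RNA libraries, stranded and depleted of ribosomal RNA, were made from 18 mammary tumors. The authors checked reads with FastQC 0.11.9, aligned to GRCm39 using STAR 2.7.10b, and obtained gene counts from RSEM 1.3.3 on GENCODE M34 (tools per the labels and the study's methods). Counts were deposited by the authors as whole numbers, not normalized. Of 57126 gene identifiers, 56620 matched GENCODE M39, and the 506 without a match took up to 0.0464% of the counts in a tumor.

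Counts were tested with edgeR 4.0.16 in R 4.3.3 (TMM, filterByExpr, quasi-likelihood test, Benjamini-Hochberg), which was tested on simulated data. CPM values use TMM library sizes. With 23113578 to 37365062 counts per tumor, the spread between tumors, not counting error, limits precision. Members, gene lists and the rule for named genes were chosen with earlier results of these data known. The rule named all 10 genes, up to 4 called genes and the 3 with the smallest p of each list, and the 3 genes most like each member. List genes not called are mostly not printed. One called gene of the monocyte list is not reported here. Msr1, F13a1, Ccl2, Il34, Fcgr1, Mertk, Spi1, Prox1, Flt4, Timd4, Acp5, Ocstamp and Dcstamp were named after their values were seen. Tumor names follow the labels, which number the JM779 and JM836 tumors differently from the study's table of tumors. Other settings tried were size factors and a Wald test from DESeq2 1.42.0, no filter, protein-coding genes alone, summed tumors of 1 mouse, a macrophage covariate, other groupings of the fit, a fold change limit and each tumor left out. Ratios between genes were chosen after seeing the data. Correlations used Python 3.11.15 with numpy 2.4.6 and scipy 1.17.1. p-values from tumors of 1 mouse treat them as separate samples.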

Additional observations from a re-analysis of the deposited data

Results flagged for a closer look

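In each group of 5 to 7 tumors, the gap of the highest or lowest tumor to its neighbour was set against the range of the group (Dixon's test). Of 30 groups, 10 held a tumor that stood apart. The test was run on CPM, not on log2 CPM, and its chance rate of about 1 in 20 assumes normally distributed values. The spread of CPM was skewed for several genes and the groups share tumors. The count of 10 can therefore not be set against that rate. In the MaP R245W/- group JM1233 stood above the other tumors for Adgre1 (338 CPM against 53.5 to 114), Csf1 (314 against 67.0 to 106) and C1qa (826 against 189 to 349). JM1126 did so for Spp1 (9518 CPM against 1425 to 2223). In the MaP R172H/- group YZ7 was high for Mrc1 (221 CPM against 51.5 to 116) and low for C1qa (216 against 321 to 386). YZ11 was high there for Arg1 (618 CPM against 6.76 to 126) and Cd163 (90.3 against 15.0 to 41.3), and YZ10 for Spp1 (8153 against 89.9 to 2715). In the MaP -/- group JM779-T1 was high for C1qa (475 CPM against 211 to 308).

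The difference from MaP -/- tumors was not the same in both mutants for Adgre1, by the test of MaP R172H/- against MaP R245W/- tumors (log2 fold change -1.31, FDR = 0.0302 from edgeR). Without JM1233 it was -0.60 (FDR = 0.138 from edgeR).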

How the results depend on the processing

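No paired analysis was possible because replicate numbers were given in the order of the samples and link no tumors. In MaP R172H/- against MaP -/- tumors, Adgre1 and Mrc1 were both called with DESeq2's size factors, a DESeq2 Wald test, no filter, protein-coding genes alone, summed tumors of 1 mouse and a fold change limit. Of the 10 genes, 0 were called with the macrophage covariate and 0 in a fit of all 18 tumors. The cause was not tested. All genes called went from 1760 to 3432 (DESeq2 Wald test), 1059 (protein-coding genes), 1126 (summed tumors), 367 (covariate) and 1051 (fold change limit). In MaP R245W/- against MaP -/- tumors, 424 genes were called by the DESeq2 Wald test and 2 in a fit of all 18 tumors, against 0. In MaP R172H/- against MaP R245W/- tumors, 0 of the 10 genes were called without the filter, 0 with the covariate and 0 in a fit of 12 tumors. All genes called went from 2114 to 3703 (DESeq2 Wald test), 875 (protein-coding genes) and 1392 (fold change limit). With the covariate, the log2 fold change changed sign for Cd68 against MaP -/- (0.15), and for Csf1r (0.038), Csf1 (0.39), Spp1 (0.12) and C1qa (0.32) against MaP R245W/- tumors, none of them called in either fit.

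Within MaP R172H/- tumors, r with Csf1r was 0.29 for Adgre1, 0.53 for Csf1, 0.41 for C1qa and 0.38 for Cd163, and of the opposite sign to that over all mice for Cd68 (-0.60), Mrc1 (-0.012), Arg1 (0.075) and Trem2 (-0.48). None passed the exact permutation test.

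With each tumor left out in turn, 1 to 3 of the 10 genes and 1067 to 1866 of all genes were called in MaP R172H/- against MaP -/- tumors. The lowest counts, 1 and 1067, came without JM663-T2. In MaP R245W/- against MaP -/- tumors, 0 to 3 genes were called (3 without JM779-T1, 2 without JM1564). In MaP R172H/- against MaP R245W/- tumors, 0 to 2 of the 10 genes were called, with 2 (Adgre1 and Csf1r) without JM1564 and 0 without JM1233, YZ2, YZ4 or YZ10. Log2 fold changes that changed sign were never called. In MaP R172H/- against MaP -/- tumors they ranged from -0.059 to 0.34 for Csf1, -0.19 to 0.18 for Cd68, -1.02 to 0.70 for Arg1 and -0.65 to 0.65 for Spp1. In MaP R245W/- against MaP -/- tumors they ranged from -0.46 to 0.46 for Adgre1, -0.28 to 0.74 for Csf1r, -0.23 to 0.62 for Csf1, -0.34 to 0.011 for Cd68, -1.35 to 0.19 for Mrc1 and -0.16 to 0.41 for Trem2. In MaP R172H/- against MaP R245W/- tumors they ranged from -0.49 to 0.30 for Csf1, -1.72 to 0.27 for Spp1, -0.46 to 0.16 for C1qa and -0.080 to 0.99 for Cd163. Depth limits none of the 10 genes.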

Other observations

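How far the tumors of 1 mouse differed depended on the gene. JM833-T1 and JM833-T2 were close for Adgre1 (99.9 and 112 CPM), Csf1r (239 and 269 CPM), Mrc1 (391 and 452 CPM) and Spp1 (336 and 331 CPM). They differed more for Arg1 (84.2 and 31.2 CPM), Trem2 (18.5 and 29.6 CPM), C1qa (211 and 308 CPM) and Cd163 (117 and 81.9 CPM). For Trem2 and C1qa the JM833 tumors differed by more than the JM663 tumors. JM663-T1 and JM663-T2 differed by a ratio of 7.67 for Mrc1, 4.33 for Arg1 and 2.96 for Cd163, but by 1.03 for C1qa. With a pair of tumors from each of these mice, the spread within a mouse was not tested.

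Timd4, a phosphatidylserine receptor of long-lived resident macrophages, was at 7.2 CPM in JM833-T1 and 26.2 CPM in JM833-T2, and at most 1.7 CPM in the other 16 tumors. Lyve1 was highest in the same tumors (38.6 and 51.6 CPM) and in JM1233 (34.8 CPM). Adipocyte genes summed to 3104 CPM in JM833-T1 and to 319 CPM in JM833-T2, the tumor with more Timd4 and Lyve1, and to 236 CPM in YZ4, where Timd4 was at 0.80 CPM. These genes were singled out after their values were seen.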
